A study of Mus musculus with 12 samples.

Results

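The 111 zinc-finger genes measured in the brain of P10 mice (10 days after birth) are described here across 3 genotypes of the gap junction gene Gja9. A gene was included when a probe with values in all 12 samples was assigned to it alone and its symbol began with Zfp and a digit, Zbtb, Zkscan, Zscan or Klf and a digit, or was Rest. These rules gave 159 probes, and clones of the same gene were averaged, so the 111 genes stand among 6427 named genes and 9514 features in all. The symbols chose the members, and no difference between genotypes entered the rule. The members were, however, chosen with earlier results of these data known. The mice were C57Bl/6j, and the groups were Gja9 (-/-), which lack both copies, Gja9 (+/-), which lack 1 copy, and wildtype, with 4 samples each. Gja9 is an older symbol of Gjd2, and its product connexin36 forms the gap junctions of most electrical synapses between neurons. Both deletions are in the whole animal as far as the labels say, and no other allele or treatment is named. No measured probe was named for Gjd2, so the deletion could not be checked. Whole brain was extracted, so fewer cells of a type and less RNA per cell cannot be told apart in any value below.

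C2H2 zinc fingers are short folds held by a zinc ion, and tandem arrays of them read DNA in a sequence-specific manner. Many members of the Zfp family carry a KRAB domain, which recruits the co-repressor Trim28 and a histone methyltransferase and silences transposable elements, while BTB and SCAN domains let the proteins pair and recruit other partners. KLF proteins bind GC-rich promoters in many tissues. Rest, also known as NRSF, binds a long element in neuronal genes and keeps them silent outside neurons and in progenitors, and its level declines as neurons mature.

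The label of zinc-finger transcription factors covers the members only in part. Of the 111 genes, 74 were other Zfp genes, 13 encode BTB proteins (12 Zbtb genes and Zfp131), 6 encode KLF proteins, 5 encode SCAN proteins and 1 is Rest. Both Zfp592 and Zfp687 belong to a chromatin complex. A further 3 genes, Zfp36, Zfp36l1 and Zfp36l2, encode CCCH proteins that bind AU-rich elements of mRNAs and promote their decay, and 7 have other cellular roles, such as Zfp598, a ubiquitin ligase that acts on collided ribosomes, and Zfp207, a spindle and checkpoint protein. No Zscan gene was among the measured members.

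Values are log2 signals on spotted cDNA arrays relative to the mean signal of the same sample, so 0 is the mean signal and 1 unit is a doubling. Samples 1 and 2 of a genotype were taken to share 1 array and samples 3 and 4 the other, as read from the values, so each genotype lay on 2 arrays. The first Gja9 (-/-) array stood apart: the median value of the members was -1.54 on it, against -1.34 on the second Gja9 (-/-) array, -1.35 and -1.32 on the Gja9 (+/-) arrays and -1.31 and -1.40 on the wildtype arrays. Over all features the same medians were -1.03 on the first Gja9 (-/-) array and between -0.95 and -0.85 on the others. The 2 arrays of a genotype differed by a median of 0.44 in Gja9 (-/-), 0.26 in Gja9 (+/-) and 0.33 in wildtype over the members, and the 2 colours of an array by 0.14, 0.11 and 0.11. Nothing in the labels beyond the statement of biological replicates says how the samples were taken, and p-values measure the spread between these samples and arrays. Tubb3, a neuronal tubulin, lay above the sample mean in every group, and averaged 2.82 in Gja9 (-/-), 3.01 in Gja9 (+/-) and 2.83 in wildtype. Spot signal depends on the clone, so these values go with the brain label but do not test it.

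In Gja9 (-/-) against wildtype, which addresses complete loss of Gja9, no zinc-finger gene passed the test: 0 of 111 members had an adjusted p under 0.05 (limma with Benjamini-Hochberg adjustment over all 9514 features), against 0.326% of all features. At an unadjusted p under 0.05, 12 members were lower (10.8%) and 1 was higher (0.901%), beside 9.22% and 2.41% of all features, so the members' shares lay near the background. The groups did not overlap in 21 members that were lower and 12 that were higher, or 18.9% and 10.8%, beside 15.6% and 7.52% of all features. The difference was below 0 in 70 members and above 0 in 41. Its median was -0.16, beside -0.10 over all features, and the members ranged from -1.49 to 0.68. Scaling moved this direction: after quantile normalization the median was 0.03 in the members and 0.02 over all features, with 58 members above 0, and the 1 higher and 12 lower members became 2 and 7. They became 3 and 8 with median centring, and 5 and 9 with centring on nearby probes.

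In Gja9 (+/-) against wildtype, which addresses the loss of 1 copy, 0 members passed the test, beside 0% of all features. At an unadjusted p under 0.05, 4 members were higher and 1 was lower, or 3.60% and 0.901%, beside 1.67% and 0.515% of all features. The groups did not overlap in 13 members that were higher and 5 that were lower, beside 8.67% and 6.09% of all features. The median difference was 0.06, beside 0.03 over all features, with 64 members above 0 and 47 below. The 2 comparisons with wildtype share the wildtype samples.

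In Gja9 (-/-) against Gja9 (+/-), 0 members passed the test, beside 0.273% of all features. At an unadjusted p under 0.05, 18 members were lower and 1 was higher, or 16.2% and 0.901%, beside 11.3% and 3.64% of all features. The groups did not overlap in 25 members that were lower and 9 that were higher, beside 22.5% and 10.2% of all features. The median difference was -0.30, beside -0.17 over all features, and 75 members lay below 0. Without the first Gja9 (-/-) array, 16 members were lower at an unadjusted p under 0.05, 2 were higher and the median was -0.17. Only 10 of the 18 lower members were still among these, and the 1 higher member was not. After quantile normalization the median was -0.05 in the members and -0.01 over all features, and 5 members were lower and 8 higher at an unadjusted p under 0.05. Those counts were 8 and 5 with median centring, and 21 and 3 with centring on nearby probes.

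**Figure D1:**
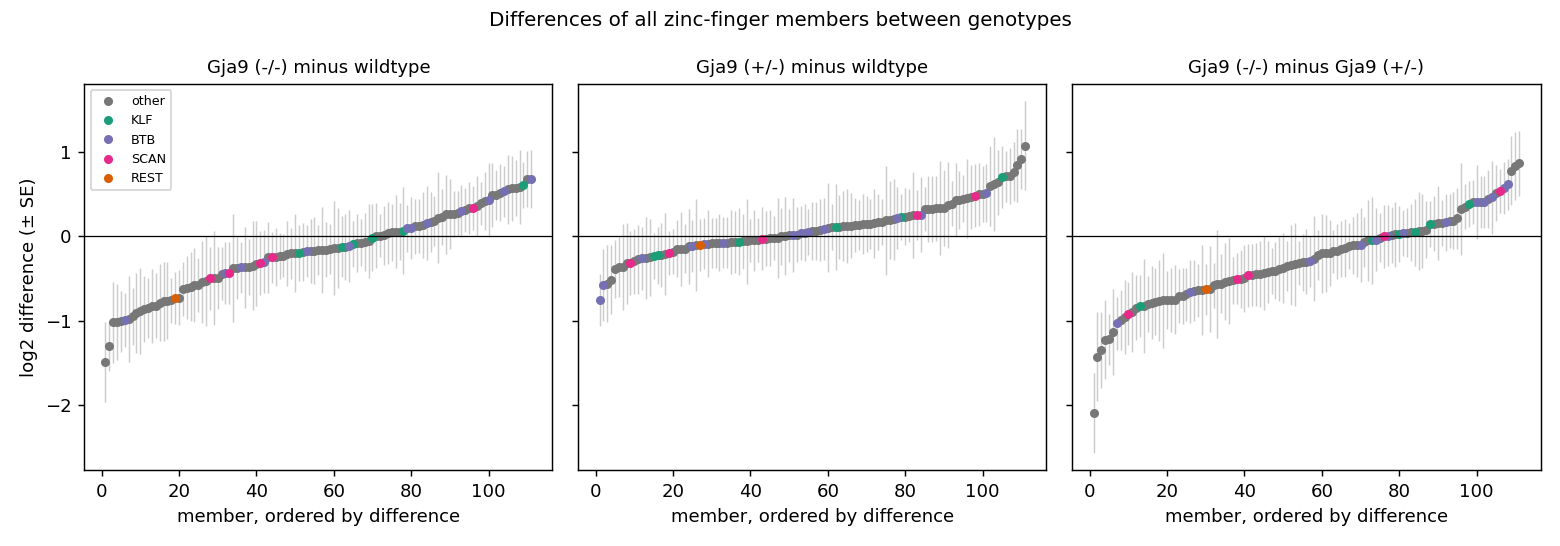
Log2 difference of each of the 111 zinc-finger genes with its standard error (vertical axis), ordered by size within each comparison (horizontal axis) and coloured by family. The left and right panels lie mostly below 0 (medians -0.16 and -0.30) and the middle panel slightly above (0.06), and no gene passed the adjusted threshold in any panel.

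Rest was lower in Gja9 (-/-) in every sample, but did not pass the test. Its values were -0.18, 0.02, 0.07 and -0.09 in Gja9 (-/-), 0.53, 0.60, 0.65 and 0.56 in Gja9 (+/-), and 0.75, 0.71, 0.65 and 0.63 in wildtype. The 4 Gja9 (-/-) samples lay apart from the other 8, and those of Gja9 (+/-) and wildtype overlapped. The difference was -0.73 ± 0.31 in Gja9 (-/-) against wildtype (SE, n = 4 samples on 2 arrays per genotype, limma with Benjamini-Hochberg adjusted p = 0.382), -0.10 ± 0.31 in Gja9 (+/-) against wildtype (adjusted p = 1) and -0.63 ± 0.31 in Gja9 (-/-) against Gja9 (+/-) (adjusted p = 0.354). The difference from wildtype was -0.70 ± 0.29 without the first Gja9 (-/-) array, -0.69 with quantile normalization and -0.65 with median centring. When each sample was centred on the probes printed nearby, Rest passed the test in Gja9 (-/-) against wildtype, at -0.93 ± 0.18 (adjusted p = 0.0387). It was represented by 1 clone, so no second clone bears on it.

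Rest silences its targets through co-repressor complexes, and 14 of 17 listed members of these were measured. None passed the test in any comparison. Against wildtype, the median difference in Gja9 (-/-) was -0.32, beside -0.10 over all features. At an unadjusted p under 0.05, 1 of the 14 (7.14%) was lower, beside 9.22% of all features. This gene was Sin3a, a scaffold of histone deacetylase complexes, which averaged -2.83 in Gja9 (-/-) and -1.71 in wildtype, a difference of -1.12 ± 0.42 (limma with Benjamini-Hochberg adjusted p = 0.329). Against Gja9 (+/-), 3 (21.4%) were lower at an unadjusted p under 0.05, beside 11.3% of all features. These were Ctdsp1, a phosphatase recruited by Rest, at -1.01 ± 0.42, Sin3a at -0.94 ± 0.42 and Sin3b at -0.70 ± 0.33. Only 3 of 20 listed target genes of Rest were measured, the neuronal genes Stmn3, Scn3b and Tubb3. Their differences in Gja9 (-/-) against wildtype were -0.38 ± 0.32, 0.12 ± 0.57 and -0.01 ± 0.39, and none was called.

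The KLF genes did not pass the test in any comparison, and 4 of 6 were below 0 in Gja9 (-/-) against wildtype (2 of 6 with quantile normalization or centring on nearby probes). Klf9, which thyroid hormone and glucocorticoids induce in maturing neurons, was the only member higher in Gja9 (-/-) than in wildtype at an unadjusted p under 0.05. Its values were 0.99, 1.08, 1.15 and 1.12 in Gja9 (-/-), 0.50, 0.59, 0.87 and 0.87 in Gja9 (+/-), and 0.71, 0.75, 0.22 and 0.22 in wildtype. The Gja9 (-/-) samples lay above all others, while the Gja9 (+/-) and wildtype samples overlapped. The difference in Gja9 (-/-) against wildtype was 0.61 ± 0.27 (limma with Benjamini-Hochberg adjusted p = 0.409), and 0.23 ± 0.27 in Gja9 (+/-) against wildtype. After centring on nearby probes it was 0.24 ± 0.16 in Gja9 (-/-) against wildtype, with an unadjusted p over 0.05. Both of its clones were above 0 in Gja9 (-/-), at 0.96 ± 0.33 and 0.26 ± 0.31.

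Klf4, one of the factors that reprogram cells to pluripotency and a suppressor of axon growth, had the largest difference among the KLF genes between the 2 mutant genotypes. It had values of -3.71, -3.77, -4.15 and -4.37 in Gja9 (-/-), -2.77, -3.16, -3.26 and -3.49 in Gja9 (+/-), and -4.06, -4.44, -3.30 and -3.72 in wildtype. The Gja9 (-/-) and Gja9 (+/-) samples did not overlap, and the wildtype samples overlapped with both. Against wildtype, Klf4 was at -0.12 in Gja9 (-/-) and at 0.71 in Gja9 (+/-). The difference of Gja9 (-/-) from Gja9 (+/-) was -0.83 ± 0.37 (limma with Benjamini-Hochberg adjusted p = 0.313). It passed after centring on nearby probes (-0.88 ± 0.19, adjusted p = 0.0418), but was 0.07 after quantile normalization.

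The other 4 KLF genes lay within 0.25 of wildtype in both mutant genotypes. Klf3, a repressor that recruits CtBP, differed from wildtype by -0.09 ± 0.27 in Gja9 (-/-) and -0.24 ± 0.27 in Gja9 (+/-). Klf6, a broadly expressed activator, differed by -0.02 ± 0.40 and -0.06 ± 0.40. Klf10, a gene induced by transforming growth factor beta, differed by 0.07 ± 0.52 and 0.11 ± 0.52. Klf7, which supports axon growth, differed by -0.20 ± 0.34 and -0.22 ± 0.34, with 4 of its 5 clones below 0 in each genotype and the remaining clone at 0.48 ± 0.39 and 0.42 ± 0.39. Klf7 in Gja9 (-/-) was at 0.14 ± 0.34 without the first array of that genotype.

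**Figure D2:**
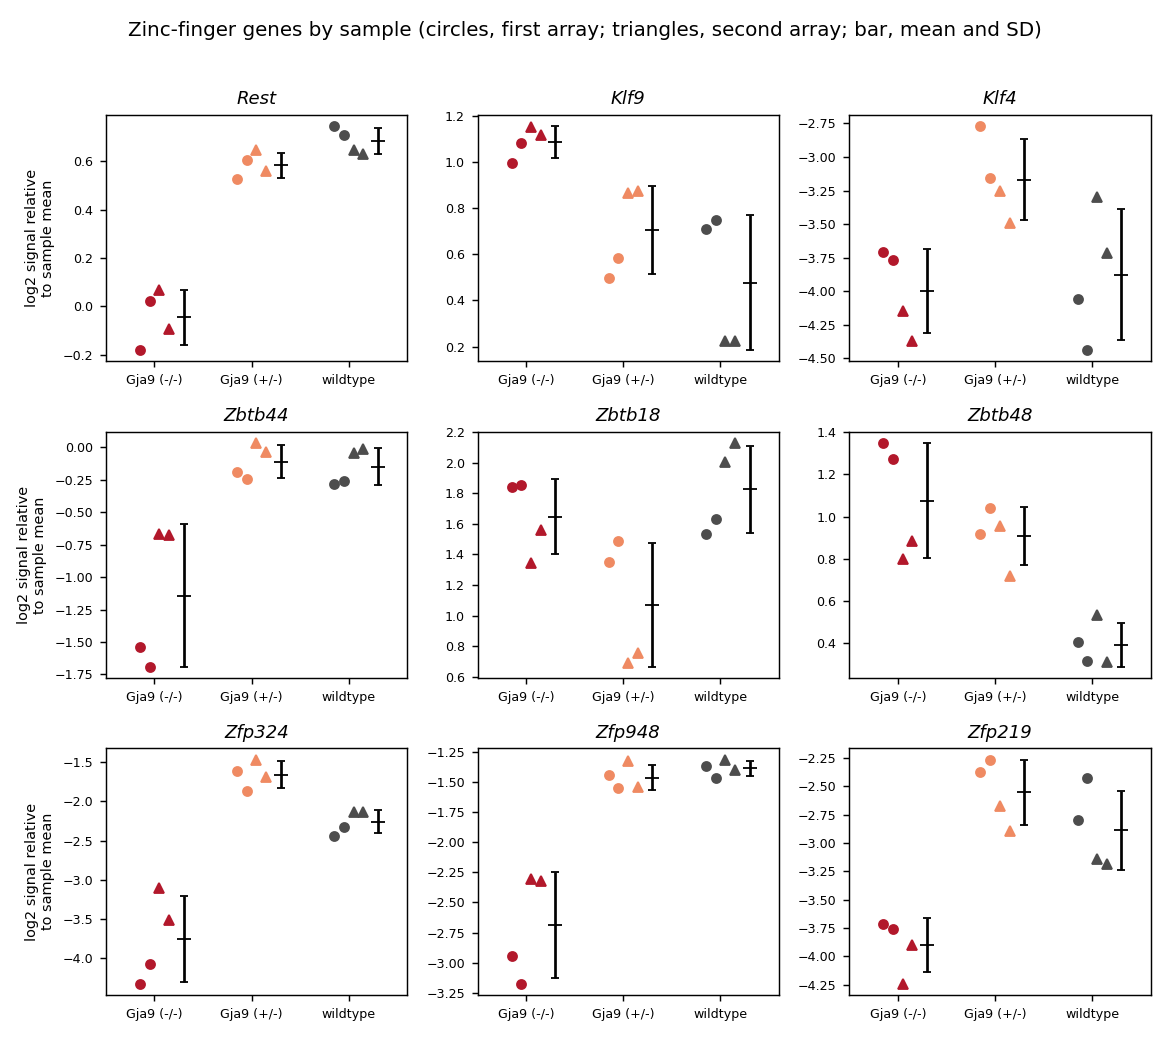
Log2 signal relative to the sample mean (vertical axes, separate scales) of 9 zinc-finger genes in the 4 samples of each genotype (horizontal axes). Circles are the first and triangles the second array of a genotype, and bars are the mean and SD. Rest and Zfp948 were lower in all 4 Gja9 (-/-) samples than in the other 8, and in Zbtb44 and Zfp948 the first Gja9 (-/-) array lay lowest.

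Among the 13 genes of BTB proteins, 0 passed the test, and the median difference from wildtype was 0.09 in Gja9 (-/-) and 0.02 in Gja9 (+/-). Zbtb44 was the only one lower in Gja9 (-/-) at an unadjusted p under 0.05. Its values were -1.54, -1.69, -0.67 and -0.68 in Gja9 (-/-), -0.19, -0.25, 0.03 and -0.04 in Gja9 (+/-), and -0.28, -0.26, -0.05 and -0.01 in wildtype. All 4 Gja9 (-/-) samples lay below the other 8, those of the first array by the most. The difference was -0.99 ± 0.32 from wildtype (limma with Benjamini-Hochberg adjusted p = 0.246) and -1.03 ± 0.32 from Gja9 (+/-) (adjusted p = 0.161). Without the first Gja9 (-/-) array it was -0.52 ± 0.27 from wildtype.

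Zbtb18, a repressor needed for the development of cortical neurons, was the only member lower in Gja9 (+/-) than in wildtype at an unadjusted p under 0.05. Its values were 1.35, 1.49, 0.69 and 0.76 in Gja9 (+/-) and 1.54, 1.63, 2.0 and 2.13 in wildtype. The groups did not overlap, but the first Gja9 (+/-) array lay close to the first wildtype array. The difference was -0.75 ± 0.31 (limma with Benjamini-Hochberg adjusted p = 1). All 4 clones were below 0, from -1.65 ± 0.62 to -0.19 ± 0.35. In Gja9 (-/-) its values were 1.84, 1.85, 1.34 and 1.56, and the difference from wildtype was -0.18 ± 0.31.

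Zbtb48, whose product binds telomeric repeats, had values of 1.35, 1.27, 0.80 and 0.88 in Gja9 (-/-), 0.92, 1.04, 0.96 and 0.72 in Gja9 (+/-), and 0.41, 0.32, 0.54 and 0.31 in wildtype. Every mutant sample lay above every wildtype sample. The difference was 0.68 ± 0.34 in Gja9 (-/-) (limma with Benjamini-Hochberg adjusted p = 0.463) and 0.52 ± 0.34 in Gja9 (+/-) (adjusted p = 1). The difference in Gja9 (-/-) was 0.45 ± 0.37 without its first array. Zbtb7a, a regulator of blood cell lineages, had values of -0.34, -0.48, -1.16 and -1.19 in Gja9 (-/-) against -1.54, -1.52, -1.11 and -1.13 in wildtype, so the groups overlapped. Zbtb20, needed in hippocampal development, differed from wildtype by 0.30 ± 0.31 in Gja9 (-/-) and -0.11 ± 0.31 in Gja9 (+/-). Zbtb17, known as the Myc partner Miz1, differed by -0.30 ± 0.37 and -0.26 ± 0.37. The other named genes of this family (Zbtb4, Zbtb10, Zbtb11, Zbtb14, Zbtb34 and Zbtb46) lay between -0.44 and 0.43 in Gja9 (-/-) and between -0.58 and 0.26 in Gja9 (+/-). Without the first Gja9 (-/-) array, Zbtb34 in Gja9 (-/-) was at -0.82 ± 0.34, and 2 turned sign, Zbtb11 to 0.46 ± 0.34 and Zbtb10 to -0.17 ± 0.39. Of the co-repressors and the ubiquitin ligase that BTB proteins recruit, 5 of 9 listed genes were measured, and 0 reached an unadjusted p under 0.05 in any comparison.

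None of the 5 SCAN genes passed the test. Zfp24, needed for myelination by oligodendrocytes in mice, had values of -1.14, -1.19, -1.76 and -1.45 in Gja9 (-/-), -0.67, -0.72, -0.18 and -0.31 in Gja9 (+/-), and -0.66, -0.64, -1.24 and -1.28 in wildtype. The Gja9 (-/-) samples lay below those of Gja9 (+/-), but overlapped with wildtype. The differences were -0.92 ± 0.37 from Gja9 (+/-) (limma with Benjamini-Hochberg adjusted p = 0.27) and -0.43 ± 0.37 from wildtype, and the first was -0.48 ± 0.27 after centring on nearby probes. Of 4 oligodendrocyte markers measured (Mbp, Cnp, Olig2 and Pdgfra), all 4 were below 0 in Gja9 (-/-) in both comparisons (3 of 4 against wildtype after centring on nearby probes). The precursor marker Pdgfra was lower at an unadjusted p under 0.05, while Mbp and Cnp differed from wildtype by only -0.64 ± 0.92 and -0.69 ± 0.70. In Gja9 (+/-) against wildtype, Zfp24 was at 0.48, but 3 of the 4 markers were below 0, with a median of -0.06. The summed signal of the 4 markers, in multiples of the sample mean, ranged from 7.19 to 14.6 in Gja9 (-/-), from 9.57 to 16.5 in Gja9 (+/-) and from 14.1 to 18.1 in wildtype. The part of these markers in the result was not tested. Zkscan1, Zkscan6 and Zkscan17 differed from wildtype by -0.32 ± 0.38, 0.34 ± 0.26 and -0.25 ± 0.30 in Gja9 (-/-), and by -0.32 ± 0.38, -0.20 ± 0.26 and 0.25 ± 0.30 in Gja9 (+/-).

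Of the 74 other Zfp genes, 10 (13.5%) were lower in Gja9 (-/-) than in wildtype at an unadjusted p under 0.05, beside 9.22% of all features, and 0 were higher, with a median of -0.19. Zfp948 had the smallest p of all members in this comparison. Its values were -2.94, -3.17, -2.31 and -2.32 in Gja9 (-/-), -1.44, -1.55, -1.32 and -1.54 in Gja9 (+/-), and -1.36, -1.47, -1.31 and -1.40 in wildtype. The Gja9 (-/-) samples lay well below the other 8, which overlapped. The difference from wildtype was -1.30 ± 0.30 (limma with Benjamini-Hochberg adjusted p = 0.103) and that from Gja9 (+/-) was -1.22 ± 0.30 (adjusted p = 0.0946). It was -0.93 ± 0.28 from wildtype without the first Gja9 (-/-) array. Its probe number fell within the final 3 of 48 equal stretches, and after centring on nearby probes the difference was -0.38.

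With the values as deposited, Zfp324 had the largest difference among the members in either comparison of Gja9 (-/-). With quantile normalization, the largest difference from wildtype among members was that of a chromosome 17 neighbour (-0.97). It was that of Rest (-0.93) with centring on nearby probes. Feature means over the 12 samples went down to -4.71, and the Gja9 (-/-) values of Zfp324 lay toward that dim end. So did the Gja9 (-/-) values of Klf4 and Zfp219. Zfp324 had values of -4.32, -4.07, -3.11 and -3.51 in Gja9 (-/-), -1.61, -1.87, -1.47 and -1.69 in Gja9 (+/-), and -2.44, -2.32, -2.13 and -2.14 in wildtype. The 3 genotypes did not overlap, with wildtype between the others. The difference was -2.09 ± 0.47 from Gja9 (+/-) (limma with Benjamini-Hochberg adjusted p = 0.0741), -1.49 ± 0.47 from wildtype (adjusted p = 0.245) and 0.60 ± 0.47 in Gja9 (+/-) against wildtype (adjusted p = 1). It passed against Gja9 (+/-) after centring on nearby probes, at -1.28 ± 0.27 (adjusted p = 0.0369), and when the dye of wildtype sample 3 and Gja9 (-/-) sample 1 was taken from the labelling text, at -2.05 ± 0.40 (adjusted p = 0.0386). Without the first Gja9 (-/-) array it was -1.65 ± 0.43. The labelling text gives Cy3 to both samples of the first Gja9 (-/-) array and of the second wildtype array. By the label field each array held both dyes, so the dye setting of the labelling text conflicts with the array mates as read here.

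Zfp219, a partner of Sox9 in cartilage, had values of -3.71, -3.76, -4.24 and -3.90 in Gja9 (-/-), -2.38, -2.26, -2.67 and -2.89 in Gja9 (+/-), and -2.80, -2.43, -3.14 and -3.19 in wildtype. The Gja9 (-/-) samples were the lowest, those of both arrays alike. The difference was -1.01 ± 0.45 from wildtype (limma with Benjamini-Hochberg adjusted p = 0.405) and -1.35 ± 0.45 from Gja9 (+/-) (adjusted p = 0.193). Zfp12 showed the same order, at -2.44, -2.48, -2.98 and -3.01 in Gja9 (-/-), -1.81, -1.59, -1.79 and -1.76 in Gja9 (+/-), and -1.80, -1.92, -1.77 and -2.04 in wildtype. Both of its clones were below 0 against wildtype, at -0.57 ± 0.50 and -1.13 ± 0.48. Zfp87 had values of -1.67, -1.94, -1.50 and -1.68 in Gja9 (-/-) against -0.85, -1.08, -0.76 and -1.05 in wildtype, and its difference was -0.76 ± 0.26 (adjusted p = 0.288). Zfp512, at -2.69, -2.40, -1.55 and -1.47 in Gja9 (-/-) against -1.05, -0.92, -1.17 and -0.93 in wildtype, did not overlap either, but its difference of -1.01 ± 0.36 was -0.49 ± 0.31 without the first Gja9 (-/-) array. The others lower at an unadjusted p under 0.05 were Zfp942, described below, Zfp707 (-0.73 ± 0.33), Zfp354a (-0.86 ± 0.40) and Zfp628 (-0.82 ± 0.38). These last 3 differed from wildtype by -0.96 ± 0.35, -0.14 ± 0.31 and -0.41 ± 0.28 without the first Gja9 (-/-) array. Of the 12 lower members, 7 kept an unadjusted p under 0.05 without that array. With centring on nearby probes, the difference from wildtype was -0.58 in Zfp324, -0.58 in Zbtb44, -0.26 in Zfp87, -0.24 in Zfp512, -0.46 in Zfp12 and -0.52 in Zfp219.

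The higher members in Gja9 (+/-) against wildtype were Zfp623, Zfp821, Zfp644 and Zfp598 at an unadjusted p under 0.05. Zfp623 had values of -1.14, -1.15, -1.20 and -1.24 in Gja9 (+/-) against -2.03, -2.21, -2.01 and -2.16 in wildtype, a difference of 0.92 ± 0.36 (limma with Benjamini-Hochberg adjusted p = 1). The groups were far apart and tight. Samples of Gja9 (-/-) split by array for the same gene, at -1.09, -1.41, -2.24 and -2.23. Zfp598, the ribosome-linked ubiquitin ligase, had values of -0.87, -0.85, -0.16 and -0.24 in Gja9 (+/-) against -1.09, -1.17, -1.27 and -1.46 in wildtype, a difference of 0.72 ± 0.33. Its Gja9 (-/-) values were -0.62, -0.45, -0.78 and -0.85, also above every wildtype sample, at 0.57 ± 0.33. Zfp821 and Zfp644 differed by 0.71 ± 0.30 and 0.77 ± 0.35 in Gja9 (+/-), and Zfp821 by 0.39 ± 0.23 after centring on nearby probes. Zfp28 had the largest difference in this comparison, 1.08 ± 0.53, at -1.92, -2.04, -1.09 and -1.45 in Gja9 (+/-) against -2.48, -2.58, -3.12 and -2.63 in wildtype.

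The CCCH genes of mRNA decay all had differences above 0 in Gja9 (-/-), with a median of 0.31 from wildtype and 0.35 from Gja9 (+/-), and none passed the test. All 3 also stayed above 0 with quantile normalization, median centring and centring on nearby probes. Zfp36l2 had values of -1.10, -1.45, -1.31 and -1.40 in Gja9 (-/-), -2.11, -2.25, -2.09 and -2.15 in Gja9 (+/-), and -1.96, -2.04, -1.45 and -2.05 in wildtype. The Gja9 (-/-) samples lay above all Gja9 (+/-) samples, and 1 wildtype sample reached them. The difference was 0.83 ± 0.40 from Gja9 (+/-) (limma with Benjamini-Hochberg adjusted p = 0.354) and 0.56 ± 0.40 from wildtype. With centring on nearby probes these were 0.42 ± 0.26 and 0.32 ± 0.26. Zfp36l1 lay at -1.31, -1.46, -1.35 and -1.34 in Gja9 (-/-), against -1.67, -1.85, -1.65 and -1.69 in Gja9 (+/-), a difference of 0.35 ± 0.26. Among the 7 genes of other cellular roles, all differences from Gja9 (+/-) were below 0 in Gja9 (-/-), with a median of -0.42, but 1 was above 0 with quantile normalization and 1 with centring on nearby probes. Zfp638, an RNA-linked regulator of fat cell formation, had the lowest p of these, at -3.21, -2.88, -1.56 and -1.29 in Gja9 (-/-) against -1.0, -0.66, -1.34 and -1.38 in Gja9 (+/-). The groups overlapped, and its difference of -1.14 ± 0.51 was -0.33 ± 0.46 without the first Gja9 (-/-) array.

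Of the KRAB co-repressor genes, 9 of 12 were measured and 0 passed the test. At an unadjusted p under 0.05, 1 (11.1%) was lower in Gja9 (-/-) than in wildtype, beside 9.22% of all features. This was Pphln1, a subunit of the HUSH silencing complex. It averaged -2.27 in Gja9 (-/-) and -0.98 in wildtype, a difference of -1.29 ± 0.48 (limma with Benjamini-Hochberg adjusted p = 0.329). Cbx3, a heterochromatin protein, was higher than in Gja9 (+/-), with a difference of 0.68 ± 0.31. Of 98 other C2H2 genes, 28 were measured. In Gja9 (-/-) against wildtype, 0 were higher and 1 (3.57%) was lower at an unadjusted p under 0.05, beside 2.41% and 9.22% of all features. That gene was Ctcf, which shapes chromatin loops. It averaged -2.96 in Gja9 (-/-), -1.68 in Gja9 (+/-) and -1.91 in wildtype, so its difference was -1.06 ± 0.35 from wildtype (adjusted p = 0.26) and -1.28 ± 0.35 from Gja9 (+/-) (adjusted p = 0.124). Sp1, the GC-box factor, averaged -0.86 in Gja9 (-/-), 0.05 in Gja9 (+/-) and -0.66 in wildtype. Against Gja9 (+/-), 2 of the 28 (7.14%) were higher at an unadjusted p under 0.05, beside 3.64% of all features. At that level 3 (10.7%, beside 11.3%) were lower: Ctcf, Sp1 (-0.91 ± 0.32) and Gfi1, a repressor in blood cell differentiation (-0.68 ± 0.27). One of those higher was Ikzf5, a member of the Ikaros family, which averaged -1.17 in Gja9 (-/-), -2.30 in Gja9 (+/-) and -2.02 in wildtype. Its difference was 1.13 ± 0.42 from Gja9 (+/-) (limma with Benjamini-Hochberg adjusted p = 0.24) and 0.86 ± 0.42 from wildtype (adjusted p = 0.461), and its Gja9 (-/-) samples overlapped with neither group. The median of these C2H2 genes was -0.05 in Gja9 (-/-) against wildtype, with 14 above 0 and 14 below.

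The members were unevenly spread over the genome. Chromosome 7 held 18 of them, 16.2% against 7.03% of all named genes, chromosome 17 held 13, 11.7% against 4.6%, and chromosome 5 held 11, 9.91% against 6.64%. By gene order in the RefSeq annotation of GRCm38.p6, 49 members fell into 19 groups of neighbours, each no more than 1 Mb from the next.

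The neighbours Zfp53, Zfp948, Zfp942 and Zfp758 on chromosome 17 were singled out after their values were seen. Their promoters are shown because they tell how alike these neighbours are in sequence. Each is the window from 250 bases before to 50 bases after the annotated start, from RefSeq on GRCm38.p6, 5′ to 3′ on the strand of the gene, and capitals mark each base that lies in some run of at least 12 bases found anywhere in the partner's window on either strand. Runs that overlap or adjoin appear as 1 block, so a block of capitals need not be a single shared run.
Zfp53 (partner Zfp948, chr17:21488738-21489037, plus strand): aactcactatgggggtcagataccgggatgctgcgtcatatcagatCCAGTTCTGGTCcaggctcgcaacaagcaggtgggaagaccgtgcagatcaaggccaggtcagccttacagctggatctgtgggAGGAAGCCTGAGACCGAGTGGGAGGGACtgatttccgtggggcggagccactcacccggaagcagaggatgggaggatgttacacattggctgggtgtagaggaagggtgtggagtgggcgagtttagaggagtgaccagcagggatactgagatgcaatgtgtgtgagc
Zfp948 (partner Zfp53, chr17:21566728-21567027, plus strand): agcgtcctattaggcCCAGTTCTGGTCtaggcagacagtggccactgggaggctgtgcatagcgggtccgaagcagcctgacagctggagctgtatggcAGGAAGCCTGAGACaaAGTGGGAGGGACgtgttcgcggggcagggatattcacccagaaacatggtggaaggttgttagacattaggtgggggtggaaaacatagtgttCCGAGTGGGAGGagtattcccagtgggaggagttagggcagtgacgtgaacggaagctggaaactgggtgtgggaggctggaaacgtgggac
Zfp942 (partner Zfp758, chr17:21962415-21962714, minus strand): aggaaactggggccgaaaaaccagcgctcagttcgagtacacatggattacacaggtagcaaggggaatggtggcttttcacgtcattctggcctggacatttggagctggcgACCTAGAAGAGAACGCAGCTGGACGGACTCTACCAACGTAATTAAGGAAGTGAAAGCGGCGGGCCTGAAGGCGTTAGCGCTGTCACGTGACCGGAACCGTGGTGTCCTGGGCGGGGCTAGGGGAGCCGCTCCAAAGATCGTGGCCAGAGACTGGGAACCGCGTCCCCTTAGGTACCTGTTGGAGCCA
Zfp758 (partner Zfp942, chr17:22361213-22361512, plus strand): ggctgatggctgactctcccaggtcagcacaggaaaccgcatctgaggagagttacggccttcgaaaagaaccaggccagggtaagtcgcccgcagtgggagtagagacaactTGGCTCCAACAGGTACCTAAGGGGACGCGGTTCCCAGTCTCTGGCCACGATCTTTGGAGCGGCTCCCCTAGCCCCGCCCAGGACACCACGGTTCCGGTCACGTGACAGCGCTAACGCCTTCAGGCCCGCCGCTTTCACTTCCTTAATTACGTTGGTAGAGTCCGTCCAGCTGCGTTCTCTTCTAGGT

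The last 187 bases of the Zfp942 window, 62.3% of it, are the exact reverse complement of the last 187 bases of the Zfp758 window. The Zfp53 and Zfp948 windows were 68.9% identical over 289 aligned columns, with a longest shared run of 14 bases, and the other 4 pairs were between 51.4% and 54.8% identical. Each pair was aligned locally with gaps, in whichever orientation scored better, which was the opposite one for Zfp948 and Zfp758. No other promoters were aligned, so these identities have no background value beside them. Among 116 promoters of 92 members in the RefSeq table, or 6636 pairs of promoters of different genes, 5 pairs shared a run of at least 20 bases. The Zfp942 and Zfp758 pair was the longest, and the next shared 22 bases (Zfp618 and Zbtb4). The GC box GGGCGG, searched on both strands, was in the windows of Zfp53, Zfp942 and Zfp758 and in 57.8% of the member promoters, against 35.7% of all 32851 promoters of the same length. The KLF-type CACCC box CCACCC, also searched on both strands, was in the window of Zfp948 and in 36.2% of member promoters, against 31.5% of all.

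The 4 neighbours were all lower in Gja9 (-/-) than in wildtype, and 0 of them passed the test. Over all features, 5606 of 9514 differences in this comparison were below 0. Of the 19 groups of neighbours, 6, this one among them, had every member below 0, and 2 had every member above 0. Zfp942 had values of -1.64, -1.66, -1.01 and -1.01 in Gja9 (-/-), -0.81, -0.75, -0.25 and -0.29 in Gja9 (+/-), and -0.87, -0.76, 0.02 and 0.11 in wildtype. Its Gja9 (-/-) samples were the lowest, while the 2 arrays differed in each genotype. The difference from wildtype was -0.95 ± 0.34 (limma with Benjamini-Hochberg adjusted p = 0.296), and -0.92 after centring on nearby probes. Zfp53 had values of -1.63, -1.44, -1.46 and -1.35 in Gja9 (-/-), -0.87, -0.71, -0.79 and -0.95 in Gja9 (+/-), and -0.81, -0.84, -0.83 and -0.90 in wildtype. The arrays of each genotype agreed closely, and the difference from wildtype was -0.63 ± 0.32 (adjusted p = 0.469). Zfp758 had values of -2.89, -2.58, -2.34 and -2.18 in Gja9 (-/-), -1.84, -1.52, -1.78 and -1.79 in Gja9 (+/-), and -1.18, -1.18, -1.58 and -1.97 in wildtype, a difference of -1.02 ± 0.48 (adjusted p = 0.436). With Zfp948 included, the Gja9 (-/-) samples lay below the other 8 in all 4 genes. The 4 differences from wildtype were also below 0 with quantile normalization (from -0.97 to -0.52), median centring (from -1.22 to -0.55) and centring on nearby probes (from -0.92 to -0.34). Without the first Gja9 (-/-) array the 4 differences from wildtype were -0.56, -0.93, -0.63 and -0.78 in the order Zfp53, Zfp948, Zfp942 and Zfp758. Ppp2r1a, a measured phosphatase gene of the same region that encodes no zinc finger, differed by 0.40 ± 0.30. It was picked after its value was seen and is 1 gene, with a much brighter spot (2.13 in wildtype) than the 4 neighbours. The sequences of the spotted clones were not used here, so signal from a related transcript on the same spot cannot be told apart from the gene's own.

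**Figure D3:**
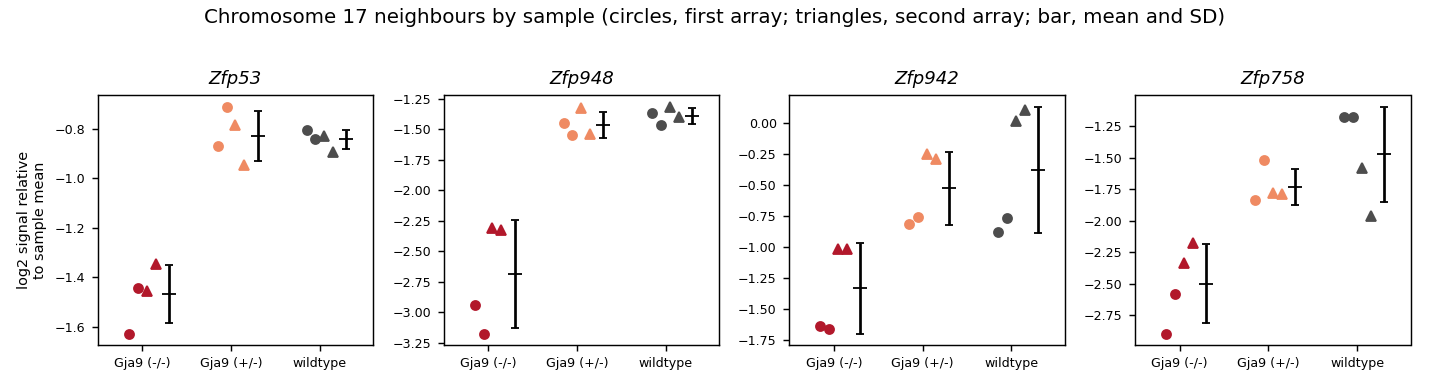
Log2 signal relative to the sample mean (vertical axes, separate scales) of the chromosome 17 neighbours Zfp53, Zfp948, Zfp942 and Zfp758 in the 4 samples of each genotype. Circles and triangles are the 2 arrays and bars the mean and SD. The 4 Gja9 (-/-) samples lie below all others in each gene, with differences from wildtype of -0.63, -1.30, -0.95 and -1.02.

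Clones of the same gene did not always move together. Of the 30 members with at least 2 clones, 14 had clones on both sides of 0 in Gja9 (-/-) against wildtype, 20 in Gja9 (+/-) against wildtype and 12 in Gja9 (-/-) against Gja9 (+/-). The median span between the clones of a gene was 0.68, 0.46 and 0.58 in these comparisons. In Zfp281, a factor of pluripotent stem cells, the 3 clones differed from wildtype by 0.15 ± 0.40, -0.25 ± 0.46 and -1.64 ± 0.37 in Gja9 (-/-), and their mean was -0.58 ± 0.32. Zbtb14 had one clone at 0.41 ± 0.35 and the other at -1.15 ± 0.43, Zfp821 had 1.12 ± 0.34 and -0.14 ± 0.39, and the 4 clones of Zfp618 ran from -1.18 ± 0.54 to 0.32 ± 0.34. The averages of these genes therefore stand for clones that disagree. Of the 12 members lower in Gja9 (-/-) than wildtype at an unadjusted p under 0.05, only Zfp12 had more than 1 clone.

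**Figure D4:**
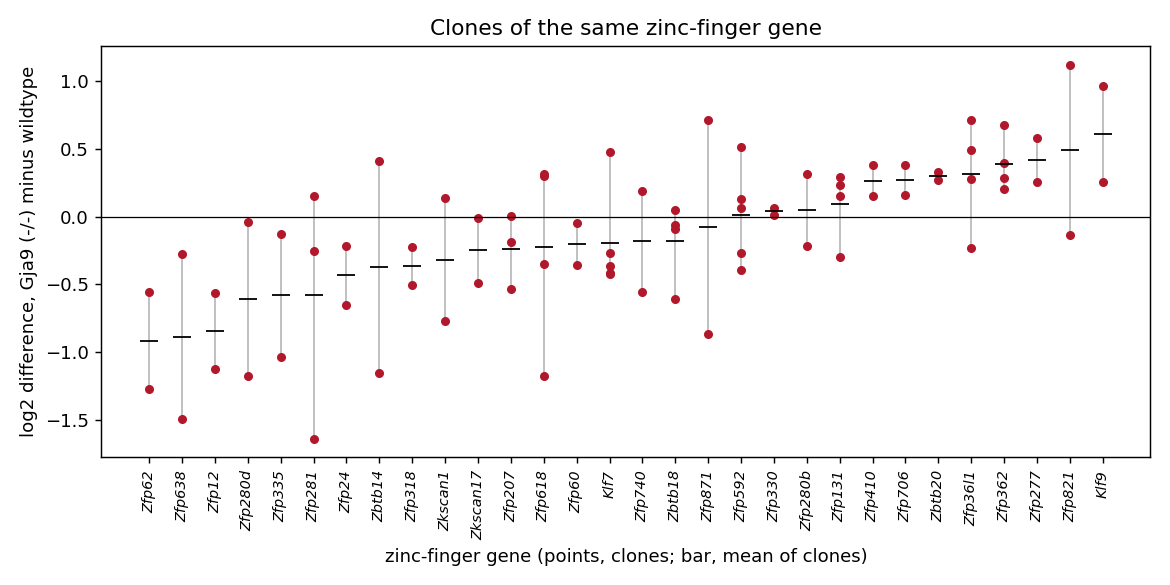
Log2 difference of Gja9 (-/-) from wildtype (vertical axis) for each clone (points) of the 30 zinc-finger genes with at least 2 clones (horizontal axis), with the mean of the clones as a bar. In 14 genes the clones lie on both sides of 0, and the widest span is 1.79 in Zfp281.

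The place of the members' probes and their spot signal are given beside the differences. The final 3 of 48 equal stretches of probe number held 9 member probes, 5.66% against 7.01% of all probes. They held 2 of the 12 members lower in Gja9 (-/-) than in wildtype at an unadjusted p under 0.05 (Zfp948 and Zfp219) and 3 of the 18 lower than in Gja9 (+/-). After centring on nearby probes, 6 of the 12 and 10 of the 18 kept an unadjusted p under 0.05. By mean spot signal, which depends on the clone and is no measure of expression between genes, 44 members fell in the dimmest of 4 equal bins of the 9514 features, 38 in the second, 15 in the third and 14 in the brightest. The median difference of Gja9 (-/-) from wildtype over all features was -0.27 in the dimmest bin and 0.00 in the brightest. In the members it was -0.20, -0.07, -0.17 and -0.17 from the dimmest to the brightest bin, so the median of the members in the third and brightest bins lay below that of all features there. In Gja9 (+/-) against wildtype the members' medians were 0.13, -0.05, 0.11 and 0.14. The part of signal and probe place in the results was not tested beyond these values.

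**Figure D5:**
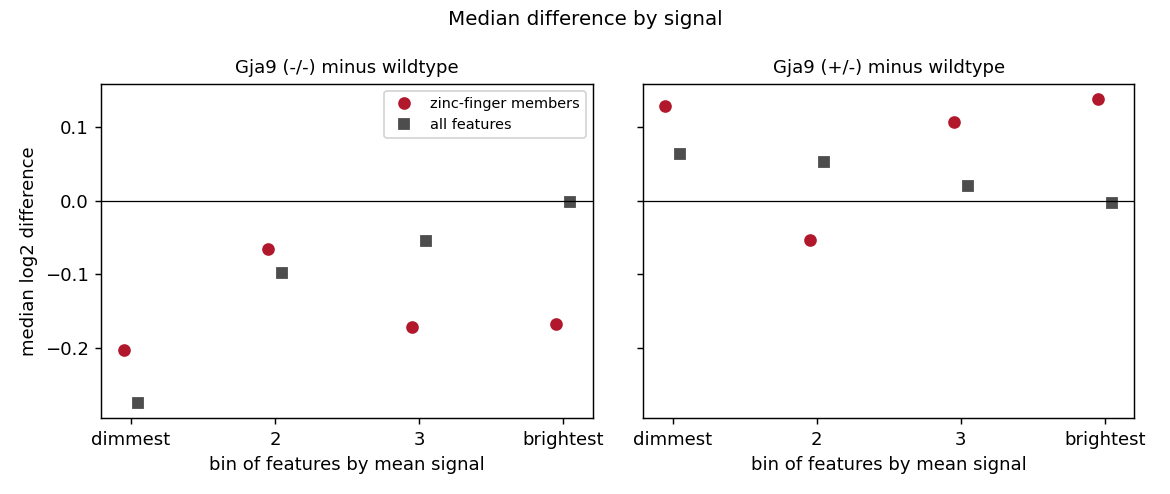
Median log2 difference from wildtype (vertical axes) in 4 equal bins of features ordered by mean spot signal (horizontal axes), for zinc-finger members (circles; 44, 38, 15 and 14 genes) and all features (squares). In Gja9 (-/-), at the left, all features run from -0.27 in the dimmest bin to 0.00 in the brightest, and the members lie between -0.20 and -0.07.

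Other cell types were followed by their markers, and none of the marker genes passed the test. Of all features, 2.41% were higher in Gja9 (-/-) than in wildtype at an unadjusted p under 0.05, and 9.22% were lower. In Gja9 (-/-) against wildtype, 1 of 5 neuron markers was lower at an unadjusted p under 0.05 (the neurofilament gene Nefm, -1.74 ± 0.53), 2 of 7 astrocyte markers were higher (the glutamate transporter gene Slc1a3, 0.90 ± 0.31, and Fabp7, 1.66 ± 0.67), 1 of 3 erythroid markers was lower (the heme synthesis gene Alas2, -1.45 ± 0.34), and 0 of 4 microglia and 0 of 6 endothelial and pericyte markers reached that level. The other markers of these types did not all lie the same way: 4 of the 7 astrocyte markers were below 0, with a median of -0.15 and Sox9 at -0.72 ± 0.49, and the globin genes Hbb-b1 and Hba-a2 were at 0.39 ± 0.41 and 0.17 ± 0.54. Fabp7 differed by 1.75 ± 0.67 in Gja9 (+/-) against wildtype. Hbb-b1 lay above Gja9 (+/-) in every Gja9 (-/-) sample, by 0.73 ± 0.41. Against Gja9 (+/-), the smallest adjusted p among all markers was 0.0576, for Alas2 (-1.71 ± 0.34, limma with Benjamini-Hochberg adjustment). The summed signal of the astrocyte markers ranged from 18.6 to 25.6 in Gja9 (-/-), from 14.6 to 19.9 in Gja9 (+/-) and from 16.7 to 18.0 in wildtype. That of the microglia markers ranged from 2.95 to 3.56 in Gja9 (-/-), from 4.33 to 4.78 in Gja9 (+/-) and from 3.52 to 4.64 in wildtype. Of the 4 microglia markers, 2 were above 0 and 2 below in Gja9 (-/-) against Gja9 (+/-). Tyrobp was the lowest of them, at -1.32 ± 0.42, so the sum does not stand for all 4. The neuron markers ranged from 13.9 to 24.7 in Gja9 (-/-), from 20.2 to 24.3 in Gja9 (+/-) and from 19.4 to 24.3 in wildtype. The part of these markers in the zinc-finger differences was not tested.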

How the data were processed

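Total RNA of whole brain was labelled with Cy5 or Cy3 and hybridised to spotted cDNA arrays, per the labels' protocols and the design text. The deposited values are log2 signals of each probe relative to the mean signal of its sample, as settled from the values. The sources used here do not state background or dye correction or further normalization. Arrays have no depth, so their number limits precision. Of 28704 probes, 13443 had values in all 12 samples and 15261 in none. Of the probes with values, 10356 had 1 gene, 560 several and 2527 none in the probe table, and 10263 symbols were updated by gene number. The symbol of 7 further probes matched the rule but named several genes, and they were left out.

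Clones of a gene were averaged on the log2 scale. Genotypes were compared by limma 3.58.1 (R 4.3.3, two-sided, lmFit with eBayes), fitted once to the 12 samples, with genotype, dye (label field) and array as a random block (duplicateCorrelation, correlation 0.928), and Benjamini-Hochberg adjustment over 9514 features. In the labelling text, wildtype sample 3 and Gja9 (-/-) sample 1 carry the other dye, the same as their array mates. Array mates were read from the correlation of within-genotype differences (0.919 to 0.940). The fit was tested on simulated data. Deviations of same-numbered samples from their genotype means correlated at 0.113 to 0.228 between Gja9 (+/-) and wildtype. Every pair was thus above 0.1, the level set for pairing. The same deviations correlated at 0.0215 to 0.0665 between Gja9 (-/-) and Gja9 (+/-), and at -0.0939 to -0.0543 between Gja9 (-/-) and wildtype. Array mates moved together, so these correlations are not independent and cannot tell pairing by sample number from likeness of whole arrays. The labels state no pairing. Values centred on nearby probes subtract each sample's median deviation within 50 probe numbers on either side.

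Promoters came from RefSeq on GRCm38.p6, and no build for the arrays is stated in the sources used here. Promoters were aligned with Biopython 1.88, and tables and figures were made with pandas 2.3.3 and matplotlib 3.10.9 in Python 3.11.15. Alternatives changed the block, dye, normalization, samples, clones, dim probes and spread model. The members and gene lists were chosen with earlier results of these data known. Named genes are every called member, the 10 higher and 10 lower members of smallest unadjusted p per comparison, all Rest, Klf, Zbtb, Zkscan and Zscan members, members whose clones have opposite signs with 1 over 1 in size, and up to 4 genes of smallest p per other list. Named beyond this rule, after their values were seen, were Zfp53 and Zfp758 (neighbours), Zfp354a, Zfp628 and Zfp638 (to complete a count or family) and Ppp2r1a. Some genes under the rule are given by count and range.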

Additional observations from a re-analysis of the deposited data

Results flagged for a closer look

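Among 153 groups of 4 samples over 51 named members, 3 had a sample far from its group by Dixon's ratio. Chance alone marks about 1 in 20 groups of independent samples. The samples here were array mates that moved together, so the count cannot be read against that rate. Zbtb10 in wildtype had a ratio of 0.919, with sample 3 at -2.54 against -3.03, -3.03 and -2.99 in the other wildtype samples. Zfp36l2 in wildtype had a ratio of 0.846 for the same sample 3, at -1.45 against -1.96, -2.04 and -2.05. Zfp36l1 in Gja9 (+/-) had a ratio of 0.83, with sample 2 at -1.85 against -1.67, -1.65 and -1.69.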

How the results depend on the processing

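Every zinc-finger count below is at an unadjusted p under 0.05 unless said otherwise, and the cause of each change was not tested unless fewer samples or probes entered. For Gja9 (-/-) against wildtype, the number of members that passed the adjusted test was 19 without the array block and 1 with local centring. At the unadjusted level it was 42 without the array block and 8 with only the 2 genotypes compared. The members' median was 0.0325 with quantile normalization, -0.0851 with median centring, -0.0426 with local centring and -0.0836 without the dimmest 25% of probes (72 members left). The count of all features passing was 1464 without the array block, 2 with array means, 5 with quantile normalization, 56 with local centring, 7 without dim probes, 3 with only the 2 genotypes and 51 without the first Gja9 (-/-) array, and between 13 and 25 when 1 sample was left out. For Gja9 (+/-) against wildtype, members at the unadjusted level numbered 19 without the array block, 3 with array means, 11 with local centring, 2 with the brightest clone and 8 without the first Gja9 (-/-) array, and between 3 and 7 when 1 sample was left out (3 each without wildtype sample 2, Gja9 (-/-) sample 4 or Gja9 (+/-) sample 2). All features passing numbered 70 without the array block and 1 with local centring. For Gja9 (-/-) against Gja9 (+/-), members that passed the adjusted test numbered 29 without the array block, 1 with the dye from the labelling text (Zfp324) and 2 with local centring (Klf4 and Zfp324). At the unadjusted level they numbered 49, 12 with the dye from the labelling text and 12 with the brightest clone, and between 11 and 17 when 1 sample was left out (12 without Gja9 (-/-) sample 1, 12 without Gja9 (+/-) sample 1 and 11 without Gja9 (+/-) sample 2). The median was -0.0542 with quantile normalization, -0.19 with median centring, -0.11 with local centring, -0.17 without dim probes and -0.17 without the first Gja9 (-/-) array. All features passing numbered 2119 without the array block, 0 with array means, 44 with the replicate block, 0 with quantile normalization, 0 with median centring, 134 with local centring, 0 without dim probes, 13 with the brightest clone, 1 with only the 2 genotypes, 5 with an intensity trend and 95 without the first Gja9 (-/-) array, and between 0 and 20 when 1 sample was left out. Klf4 in Gja9 (-/-) against Gja9 (+/-) reversed to 0.0678 with quantile normalization, and Zbtb10 there reversed to -0.44 with local centring.

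By the correlation of deviations, same-numbered Gja9 (+/-) and wildtype samples met the level set for pairing, and those of the other 2 comparisons did not. Array mates moved together, so this does not establish pairing by number. With the replicate block in place of the dye, 0 members passed in the 3 comparisons and 14, 5 and 18 reached the unadjusted level, so in Gja9 (+/-) against wildtype the block changed no call. Of 2595 values of 110 gene differences under 24 settings, 34 newly passed in the same direction and 2 reversed. Reversed values turned sign with an unadjusted p under 0.05 before or after the change. Of the others, 2439 moved by less than the spread of the samples and 120 by more. A value that turned sign without reaching that level was counted among these others. The files hold no background values, so how far a dim spot lay above background is unknown.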
